A study of Mus musculus with 6 samples.

Results

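The genes described here are Flt3, its ligand gene Flt3l, and the dendritic lineage factors Zbtb46, Batf3, Irf8 and Irf4. They are 6 of the 33696 features of the count matrices and were taken by symbol, each of which matched 1 feature: Flt3 ENSMUSG00000042817, Flt3l ENSMUSG00000110206, Zbtb46 ENSMUSG00000027583, Batf3 ENSMUSG00000026630, Irf8 ENSMUSG00000041515 and Irf4 ENSMUSG00000021356. The data are single-cell RNA sequencing of live CD45+ cells (CD45 is a surface protein of blood-derived cells) sorted from mouse mammary tumour. Each of 5 libraries carries its own treatment label, MRX, CTX, Combined, ctxd18t or combod18t, and the library labelled VC was not analysed here. The series title names MERTK inhibition together with cyclophosphamide, an alkylating chemotherapy drug, in triple negative breast cancer; the labels do not spell out MRX or CTX, name no compound, dose, strain or tumour line, and give no number of animals per library.

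Per the labels' protocol, which reads the same for every library, treatment was given 3 hours before harvest at day 7. The protocol places MRX, CTX, Combined and VC in 1 multiplexed run, and d18 in the other labels is read here as day 18. The day and the run of ctxd18t and combod18t cannot be told apart, so levels are compared within 2 pairs, Combined against CTX and combod18t against ctxd18t, with MRX beside the first pair. With 1 library per label there was no replicate check and no test was run. Every interval given is at 95% and reflects counting error alone, so differences between animals are not covered.

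FLT3 is a receptor tyrosine kinase of blood progenitors and dendritic cells, and FLT3 ligand drives the formation and upkeep of dendritic cells from bone marrow. MERTK belongs to another kinase family, the TAM receptors, which macrophages use to take up dying cells. Small molecules that inhibit both kinases exist, which is why the 2 receptors are set side by side here; whether FLT3 was inhibited in these mice is not given in the sources used here. Conventional dendritic cells take up antigen and prime T cells. The cDC1 subset needs IRF8 and BATF3 and cross-presents tumour antigen to CD8 T cells, whereas the cDC2 subset relies on IRF4 and presents mainly to CD4 T cells. Dendritic cells that carry CCR7 are a mature state that migrates to lymph nodes. Plasmacytoid dendritic cells (pDC) make type I interferon and need the E protein TCF4. ZBTB46 is a zinc finger factor used as a marker of the conventional dendritic lineage.

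The 5 libraries held between 4085 and 9064 barcodes and between 39820290 and 100733879 UMI (unique molecular identifiers, 1 per captured transcript). After filtering, 25654 cells were kept, with a median of 6239 to 8940 UMI per cell and library. CTX and combod18t shared 34 cell barcodes and Combined and ctxd18t shared 21; every other pair of the 5 libraries shared 0. Cells were clustered without the 6 genes, and clusters were named from marker genes. The conventional dendritic-like cells numbered 605, of which 88 were cDC1-like, 426 cDC2-like and 91 CCR7 dendritic-like; a further 730 cells were pDC-like. All 12 cDC1 markers (Xcr1, Clec9a and others) were seen in at least 10% of the cDC1-like cells, as were 12 of 12 pDC markers in pDC-like cells, 11 of 12 in the CCR7 dendritic-like cells and 9 of 12 in the cDC2-like cells. The cDC2-like class also carried the monocyte-macrophage list at a summed 1808 CPM (counts scaled to a total of 1000000 per class), against 16725 CPM in monocyte-macrophage-like cells. The pDC-like class carried the T list at 1766 CPM, of which Cd8b1, Cd4 and Cd8a, genes that pDC can also express, made up 657, 250 and 205 CPM; Cd3e stood at 84.8 CPM there and at 750.3 CPM in T-like cells. The CCR7 dendritic-like class carried the T list at 66.9 to 896 CPM over the libraries, and its part in the levels of that class was not tested.

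The stretch of 250 bases upstream of the annotated start is printed for the receptor, its ligand and the pair of interferon regulatory factors, because the results turn on these 4 genes. All 6 symbols matched the RefSeq promoter table, which is of the GRCm38.p6 build, an older build than the files' GRCm39; the positions are those of the table. The windows are chr5:147400490-147400739 on the minus strand for Flt3, chr7:45136433-45136682 on the minus strand for Flt3l, chr8:120736108-120736357 on the plus strand for Irf8 and chr13:30748983-30749232 on the plus strand for Irf4. Each runs 5′ to 3′ towards the start, and capitals mark the motif matches described next.
Flt3: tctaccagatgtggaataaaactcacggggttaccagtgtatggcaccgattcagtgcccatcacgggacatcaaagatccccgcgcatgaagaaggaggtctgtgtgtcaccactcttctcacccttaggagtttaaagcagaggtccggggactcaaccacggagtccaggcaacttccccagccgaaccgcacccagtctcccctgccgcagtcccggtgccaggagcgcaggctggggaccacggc
Flt3l: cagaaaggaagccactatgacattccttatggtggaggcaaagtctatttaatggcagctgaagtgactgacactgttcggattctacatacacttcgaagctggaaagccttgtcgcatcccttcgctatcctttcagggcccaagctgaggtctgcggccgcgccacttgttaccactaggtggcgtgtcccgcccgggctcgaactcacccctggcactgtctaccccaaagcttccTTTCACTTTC
Irf8: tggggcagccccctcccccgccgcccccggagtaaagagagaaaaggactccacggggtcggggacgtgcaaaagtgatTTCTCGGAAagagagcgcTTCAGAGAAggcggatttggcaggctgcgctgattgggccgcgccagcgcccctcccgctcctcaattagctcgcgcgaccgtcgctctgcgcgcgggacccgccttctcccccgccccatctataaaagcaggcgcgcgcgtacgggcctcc
Irf4: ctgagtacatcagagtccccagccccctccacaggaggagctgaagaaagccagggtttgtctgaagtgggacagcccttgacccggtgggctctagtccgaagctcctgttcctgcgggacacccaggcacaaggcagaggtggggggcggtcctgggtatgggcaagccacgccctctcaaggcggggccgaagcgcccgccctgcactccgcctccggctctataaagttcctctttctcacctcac

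Both strands of these windows were searched for 4 motifs. They were an IRF pair (GAAANNGAAA, in 3.04% of 27025 promoters of the same length), an ETS-IRF pair (GGAANNGAAA, 2.38%), a STAT site (TTCNNNGAA, 7.18%) and an AP-1 site (TGANTCA, 6.87%). Flt3l held 1 IRF pair, TTTCACTTTC, at bases 10 to 1 before the start. The Irf8 window printed above held 2 STAT sites, TTCTCGGAA and TTCAGAGAA; the window of another annotated Irf8 start, also searched, held 0 matches of the 4 motifs. The windows of Flt3 and Irf4 held none of these letters, that of Zbtb46 held 1 AP-1 match and that of Batf3 held 1 STAT match. A match describes the letters alone.

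Flt3 transcript sat in the dendritic classes. The pDC-like cells held 42.7% of all Flt3 counts while making up 2.85% of the kept cells, and the conventional dendritic-like cells held 25.4% while making up 2.36%. B-like cells, a class of low Flt3 level, held 4.13%, and clusters that mixed markers of different classes at high UMI counts held 21.9%. The counts of Batf3, Irf8 and Irf4 sat mostly in other classes, as the plot of count sources shows.

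**Figure D1:**
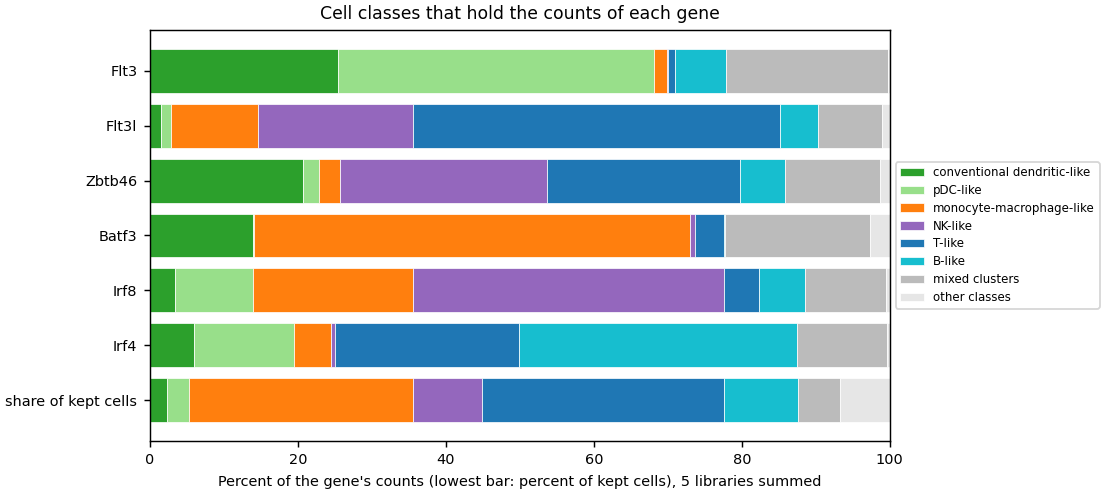
Share of each gene's counts (percent, 5 libraries summed) held by each cell class, with the share of kept cells as the lowest bar. The pDC-like and conventional dendritic-like segments are widest for Flt3 (42.7% and 25.4%), and the NK-like segment is widest for Irf8 (42.1%). The B-like segment also takes in germinal-centre B-like cells. It is widest for Irf4, of which B-like cells alone held 34.2%. The monocyte-macrophage-like segment also takes in the 914 cells of a cluster that is kept out of the named classes elsewhere in the text.

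In pDC-like cells, Flt3 stood at 357 CPM in MRX (interval 332 to 383), 293 in CTX (266 to 323) and 295 in Combined (271 to 321), and at day 18 it was 394 in ctxd18t (356 to 435) against 305 in combod18t (275 to 337). The pDC-like level was thus above 290 CPM in all 5 libraries. In cDC2-like cells it was 158 CPM in MRX (136 to 181), 57.6 in CTX (48.8 to 67.7) and 61.5 in Combined (44.5 to 82.9), against 243 in ctxd18t (210 to 279). The intervals of CTX and Combined overlap, and both lie below those of MRX and ctxd18t. The combod18t library held 18 cDC2-like cells with 70 Flt3 counts, too few for a level by the minimum of 20 cells used here.

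The cDC1-like cells of MRX held Flt3 at 197 CPM (153 to 250) and those of ctxd18t at 315 (270 to 366). CTX, Combined and combod18t had 9, 11 and 12 such cells, with 33, 30 and 91 Flt3 counts. CCR7 dendritic-like cells reached 259 CPM in CTX (209 to 318) and 467 in ctxd18t (404 to 536), the highest level of Flt3 in any class of that library. Over all 5 libraries the order of Flt3 levels was CCR7 dendritic-like at 368 CPM (335 to 403), pDC-like at 327 (314 to 340), cDC1-like at 270 (244 to 298) and cDC2-like at 117 (108 to 126). The first pair of these are neighbours whose intervals overlap, and the others do not. The sums weight the libraries by their cells, and the order of that first pair turns between libraries: in CTX the CCR7 dendritic-like level (259 CPM) was below the pDC-like level (293 CPM), and in ctxd18t it was above (467 and 394 CPM).

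Outside the dendritic classes Flt3 was low. B-like cells ranged from 14.99 to 24.0 CPM over the 5 libraries, and the germinal-centre B-like cells of ctxd18t and combod18t stood at 34.4 and 28.8 CPM. Monocyte-macrophage-like cells ranged from 0.3 to 3.4 CPM. With every cell thinned to 2000 UMI, a Flt3 UMI was seen in 45.2% of pDC-like cells, 41.4% of CCR7 dendritic-like cells, 42.0% of cDC1-like cells and 19.7% of cDC2-like cells. The same share was 0.10% in T-like cells, which serve here as the class that should lack the gene, and 0.22% in monocyte-macrophage-like cells. Before thinning the shares were 86.0% of pDC-like cells, at a median of 8992.5 UMI, and 0.33% of T-like cells, at a median of 6258 UMI. In T-like cells the counts were 3 in MRX, 7 in CTX, 4 in Combined and 0 among 1251 cells of ctxd18t, where 0 counts allow a level of up to 0.317 CPM (exact Poisson limit). The combod18t library had 38 Flt3 counts in 15 of its 2585 T-like cells, and 4 of those cells held 27 of them.

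**Figure D2:**
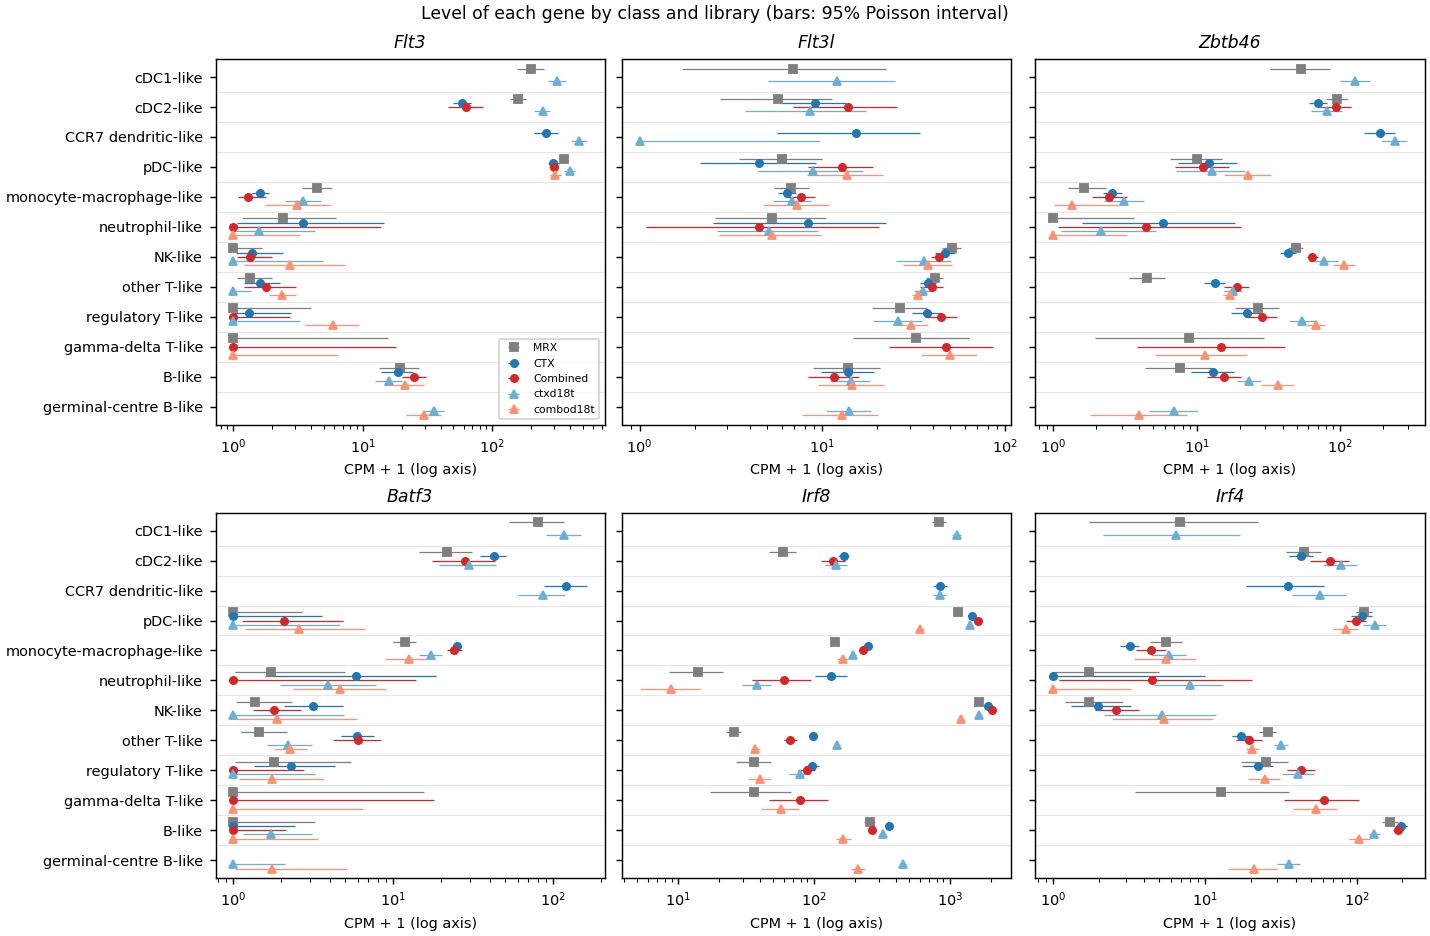
Level of each of the 6 genes (CPM + 1, log axis) by cell class, with 1 point per library of at least 20 cells in that class and bars for the 95% Poisson interval. Flt3 is high in dendritic classes and near 0 in T-like and NK-like cells; Irf8 is highest in NK-like cells (1201 to 2062 CPM) and Irf4 in B-like and pDC-like cells.

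Mertk and Flt3 were read mostly from different classes. Mertk in monocyte-macrophage-like cells stood at 34.2 CPM in MRX, 20.6 in CTX and 15.5 in Combined, and at day 18 it was 30.03 in ctxd18t against 38.7 in combod18t. Those cells held 66.5% of all Mertk counts, and cluster 10, kept out of the named classes, held 326 of 2701. The clusters behind the class differ. Over all libraries Mertk stood at 14.8 CPM in cluster 0, 19.6 in cluster 4, 44.6 in cluster 5 and 7.06 in cluster 13. Cluster 0 held 3.35% of the class in MRX, 42.3% in CTX and 58.5% in Combined. Cluster 5 held 31.0%, 25.3% and 12.6%. The part of this make-up in the Mertk levels was not tested. In conventional dendritic-like cells Mertk had 1 count in MRX, 3 in CTX and 0 in Combined, and at day 18 it was 0 in ctxd18t against 9 in combod18t, the last all in cDC2-like cells. Over all libraries, 13 Mertk counts lay in 1.17% of the 426 cDC2-like cells. Of these counts 10 lay in 1 sub-cluster, dc9, which had 2 cells in combod18t. Among 730 pDC-like cells Mertk had 1 count. After thinning, 327 of 723 pDC-like cells held a Flt3 UMI without a Mertk UMI and 0 held both. Of 6738 thinned monocyte-macrophage-like cells, 248 held Mertk without Flt3, 14 held Flt3 without Mertk and 1 held both. Before thinning, 1050 of the 6868 cells of this class held Mertk alone, 52 Flt3 alone and 17 both. Of the other TAM receptor genes, Axl stood at 40.4 CPM in cDC2-like cells, 26.9 in CCR7 dendritic-like cells and 1.5 in pDC-like cells. In cDC2-like cells it was lower in CTX (29.0 CPM) than in MRX (61.8 CPM), with a log2 ratio of -1.06 (-1.57 to -0.61).

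The ligand gene Flt3l was read from lymphocytes rather than from the cells that carry the receptor. T-like cells held 49.7% of its counts and NK-like cells 20.9%. In T-like cells its level was 38.1 CPM in MRX (34.4 to 42.1), 36.9 in CTX (33.7 to 40.4) and 40.3 in Combined (35.8 to 45.1), and at day 18 it was 33.2 in ctxd18t (29.96 to 36.7) against 32.6 in combod18t (30.3 to 35.1). In NK-like cells it was 49.97, 45.9, 42.3, 35.0 and 36.9 CPM in the same order of libraries. All these values fall within a narrow span, from 32.6 to 49.97 CPM. B-like cells stood at 10.6 to 13.6 CPM, monocyte-macrophage-like cells at 5.4 to 6.6 and conventional dendritic-like cells at 6.3 to 9.5. The Flt3l ratio in T-like cells was 0.12 on the log2 scale of CPM + 1 for Combined against CTX (-0.09 to 0.34) and -0.02 for combod18t against ctxd18t (-0.21 to 0.16). Both intervals include 0, and both bound the difference well below 2-fold.

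Zbtb46, the conventional dendritic marker, was present in all 3 conventional subsets and also in NK-like cells. In conventional dendritic-like cells it stood at 100.5 CPM in MRX (86.1 to 117), 82.9 in CTX (73.0 to 93.7) and 104 in Combined (84.6 to 126), and at day 18 it was 133 in ctxd18t (116 to 151) against 184 in combod18t (154 to 217). In NK-like cells it was 48.3 CPM in MRX (42.7 to 54.5), 42.4 in CTX (36.9 to 48.4) and 63.3 in Combined (58.1 to 68.8), and at day 18 it was 76.4 in ctxd18t (59.8 to 96.2) against 106 in combod18t (88.2 to 127). In each library the NK-like level was below the conventional dendritic-like level. NK-like cells outnumber dendritic cells, and they held 28.0% of all Zbtb46 counts; T-like cells held 26.1% and conventional dendritic-like cells 20.6%. Regulatory T-like cells ranged from 21.3 to 66.6 CPM, pDC-like cells from 9.1 to 22.0 and monocyte-macrophage-like cells from 0.3 to 2.1. Summed over the libraries, the CCR7 dendritic-like cells had the highest level, 249 CPM, with cDC1-like cells at 88.6 and cDC2-like cells at 82.2. After thinning, 9.98% of NK-like cells held a Zbtb46 UMI, against 0.18% of monocyte-macrophage-like cells. Before thinning these shares were 29.7%, at a median of 7962 UMI, and 1.25%, at 9614 UMI.

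Batf3, the AP-1 family partner that cDC1 cells need, stood at 105 CPM in CCR7 dendritic-like and 82.4 CPM in cDC1-like cells over all libraries. The cDC1-like cells of MRX stood at 79.3 CPM and the CCR7 dendritic-like cells of CTX at 119.6 CPM. In ctxd18t the order was the other way, with 115 CPM in cDC1-like (88.6 to 148) and 84.8 in CCR7 dendritic-like cells (59.4 to 117), and these intervals overlap. In cDC2-like cells it was 20.6 CPM in MRX, 41.4 in CTX and 27.2 in Combined, against 28.8 in ctxd18t. The pDC-like cells had almost none, 0.51 CPM over all libraries, and 0 of 723 thinned cells held a UMI (exact upper limit 0.509%); before thinning 0.41% did. Monocyte-macrophage-like cells held 51.0% of all Batf3 counts at a lower level per cell: 10.8 CPM in MRX (8.92 to 12.9), 23.9 in CTX (22.5 to 25.5) and 23.1 in Combined (20.6 to 25.8), and at day 18 it was 16.1 in ctxd18t (13.6 to 19.0) against 11.5 in combod18t (7.92 to 16.2). There the CTX and Combined levels stood above those of the other libraries. CTX against MRX gave a log2 ratio of 1.08 (0.87 to 1.44) over the class, but no library reached the 50 CPM asked of a tested gene. The clusters behind the class differ: cluster 0, with 26.1 CPM over all libraries, held 42 of 1253 cells in MRX, 1574 of 3725 in CTX and 635 of 1086 in Combined. In cluster 4, which held 604, 955 and 222 of those cells, Batf3 stood at 8.94 CPM in MRX (6.55 to 11.9), 25.0 in CTX (21.8 to 28.5) and 20.2 in Combined (14.7 to 27.1). The other clusters did not repeat this order in full: cluster 0 stood at 27.0 CPM in MRX (12.9 to 49.6), 26.7 in CTX and 24.9 in Combined, cluster 5 at 12.99, 18.7 and 25.8, and cluster 13 at 8.83, 21.7 and 7.88.

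Irf8 gave 93912 counts in all, and NK-like cells held 42.1% of them. The NK-like level was 1638 CPM in MRX, 1902 in CTX and 2062 in Combined, and at day 18 it was 1645 in ctxd18t against 1201 in combod18t. The pDC-like level was 1148, 1464, 1623, 1404 and 604 CPM in that order. In both classes combod18t was the lowest library. The cDC1-like cells stood at 831 CPM in MRX and 1122 in ctxd18t, and CCR7 dendritic-like cells at 851 in CTX and 843 in ctxd18t. The few cDC1-like cells of CTX, Combined and combod18t held 216, 227 and 166 Irf8 counts. The cDC2-like cells were far lower, at 58.6 CPM in MRX (46.0 to 73.5), 166 in CTX (150.3 to 182) and 137 in Combined (111 to 168), against 145 in ctxd18t (120.0 to 174). Monocyte-macrophage-like cells ranged from 143 to 251 CPM. In thinned cells an Irf8 UMI was seen in 89.6% of NK-like, 77.7% of pDC-like, 75.0% of cDC1-like and 20.4% of cDC2-like cells, against 3.29% of neutrophil-like cells. Before thinning, 95.9% of NK-like cells (median 7962 UMI) and 5.74% of neutrophil-like cells (median 3341 UMI) held one.

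Irf4 was highest in B-like cells, which use it in activation and plasma cell formation, at 164 CPM in MRX, 196 in CTX and 186 in Combined, and at day 18 it was 130.1 in ctxd18t against 103.4 in combod18t. The pDC-like cells followed with 111, 108, 98.4, 131 and 84.0 CPM. The B-like level was the higher in MRX, CTX and Combined, whereas the intervals of the classes overlap in ctxd18t and combod18t. In cDC2-like cells Irf4 stood at 44.3 CPM in MRX (33.5 to 57.6), 42.2 in CTX (34.6 to 50.9) and 65.8 in Combined (48.2 to 87.8), against 77.6 in ctxd18t (59.5 to 99.4). The cDC1-like cells held 5 Irf4 counts in all, 2 in MRX and 3 in ctxd18t, which is 3.43 CPM over the libraries. NK-like cells, the richest in Irf8, had at most 4.4 CPM of Irf4.

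Irf8 and Irf4 divided the conventional subsets. Capture differs between genes in 3′ counting, so the share of Irf8 in their summed counts is read between classes and not as a ratio of molecules. It is given also where a library held under 20 such cells. In cDC1-like cells that share was 99.3% in MRX, 100% in CTX and 100% in Combined, and at day 18 it was 99.5% in ctxd18t against 100% in combod18t. In cDC2-like cells it was 56.9%, 79.7%, 67.6%, 65.2% and 48.5% in the same order, below cDC1-like cells in every library. Over all libraries the counts were 1505 of Irf8 and 5 of Irf4 in cDC1-like cells, and 747 and 308 in cDC2-like cells. The CCR7 dendritic-like cells, at 95.4% (93.9 to 96.6), lay between cDC1-like cells, at 99.7% (99.2 to 99.9), and pDC-like cells, at 92.3% (91.8 to 92.8). Single thinned cells also differed between the subsets. Of 88 cDC1-like cells, 66 held Irf8 without Irf4 and 0 held an Irf4 UMI (exact upper limit 4.11%); before thinning 4 of the 88 held both. Of 422 cDC2-like cells, 81 held Irf8 alone, 36 held Irf4 alone and 5 held both. Before thinning, 146 of the 426 cDC2-like cells held Irf8 alone, 54 Irf4 alone and 76 both, so low counts hide cells with both. Both were seen in 108 of 723 pDC-like cells, and in 342 of 730 before thinning. The clusters were made from other genes of the same cells, so these counts describe the subsets and are no test of them.

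**Figure D3:**
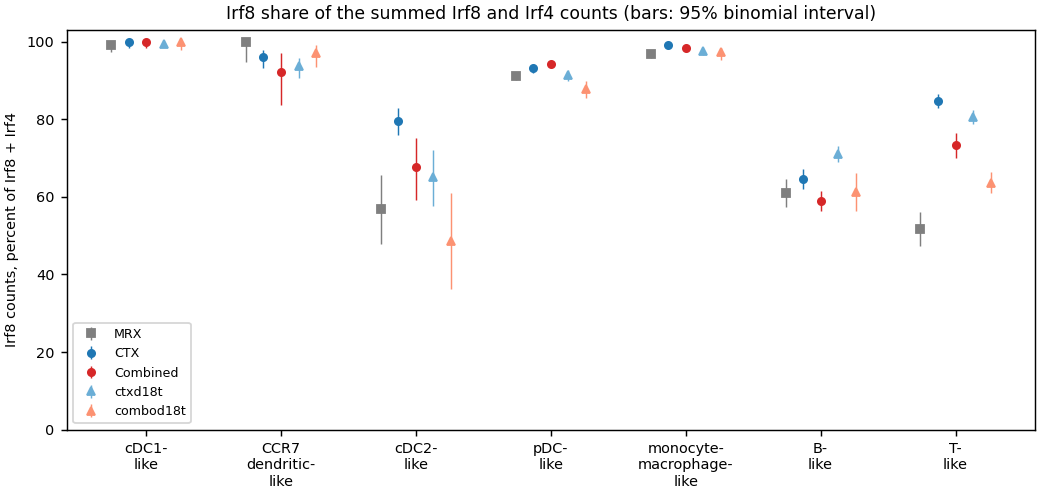
Irf8 counts as a percent of summed Irf8 and Irf4 counts by class, 1 point per library, with 95% binomial intervals. All cDC1-like points lie at or above 99.3%, whereas cDC2-like points run from 48.5% to 79.7%.

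The cDC2-like class was not uniform in these genes. It was made of 6 sub-clusters, and over all libraries Flt3 ran from 19.9 CPM in sub-cluster dc10 and 33.4 CPM in dc2 to 328 CPM in dc9. Irf8 was lowest in dc1 (61.2 CPM) and highest in dc2 (226 CPM). Irf4 was lowest in dc2 (18.3 CPM) and highest in dc9 (104 CPM). Zbtb46 ran from 43.5 CPM in dc7 to 117 CPM in dc10, leaving out dc11, which had 15 cells and 1 Zbtb46 count. The libraries drew on these sub-clusters unequally: dc1 made up 64.4% of the cDC2-like cells of MRX, 25.0% of CTX and 11.8% of Combined, and dc2 made up 7.6%, 27.6% and 51.0%.

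The share of conventional dendritic-like cells was lower in Combined and combod18t than in their partners. These cells made up 3.13% of kept cells in MRX, 2.73% in CTX and 1.66% in Combined, and at day 18 they made up 2.60% in ctxd18t against 1.04% in combod18t. Combined was 1.07 points below CTX (difference -1.07, Newcombe interval -1.57 to -0.53), and combod18t was 1.56 points below ctxd18t (difference -1.56, -2.18 to -0.97). The cDC1-like share was 0.541% in MRX, 0.106% in CTX and 0.257% in Combined, and at day 18 it was 0.728% in ctxd18t against 0.311% in combod18t. It was the higher in Combined of the first pair (difference 0.152 points, 0.003 to 0.361) and the lower in combod18t of the second (difference -0.417, -0.766 to -0.095). The cDC2-like share was lower in both, by -1.06 points (-1.51 to -0.589) and -0.756 points (-1.19 to -0.351). The pDC-like share was 5.16%, 1.92%, 3.88%, 1.92% and 1.56% in the order MRX, CTX, Combined, ctxd18t, combod18t. It was 1.97 points higher in Combined than in CTX (1.34 to 2.65), and the difference of the day-18 pair was -0.369 points (-0.964 to 0.219). The total behind these shares includes the T-like class, 32.5% of ctxd18t and 67.0% of combod18t. Over the cells that are not T-like, a denominator chosen after the data were seen, conventional dendritic-like cells made up 3.86% in ctxd18t and 3.14% in combod18t, and the interval of the difference includes 0 (-0.71 points, -1.87 to 0.585). Over the same cells the pDC-like share was higher in combod18t, 4.71% against 2.85% (difference 1.86 points, 0.604 to 3.29). The day-18 differences of the subsets were then -0.137 points in cDC1-like (-0.760 to 0.636) and -0.398 in cDC2-like cells (-1.18 to 0.527), both with 0 in the interval. In the first pair the signs stayed as above, at -1.26 points (-1.90 to -0.574) for conventional dendritic-like and 2.64 points (1.84 to 3.50) for pDC-like cells. The pDC-like share also depends on the mixed cluster 20, led by Klk1, Ccr9, Cox6a2 and Siglech, which was left out; it held 16 cells in MRX, 149 in CTX and 85 in Combined, and 33 and 8 at day 18. Counted with the pDC-like cells, also a choice made after the data were seen, it brings the shares to 5.47%, 3.67%, 5.87%, 2.78% and 1.76%. Combined then stands above CTX by 2.21 points (1.42 to 3.04), and the day-18 difference is -1.02 points (-1.70 to -0.355). The day-18 difference in pDC-like share thus has no settled sign. Cells of mixed clusters with conventional dendritic genes were left out of these shares; they made up 2.72% of kept cells in CTX and 0.702% in Combined, and 1.61% in ctxd18t and 0.959% in combod18t.

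**Figure D4:**
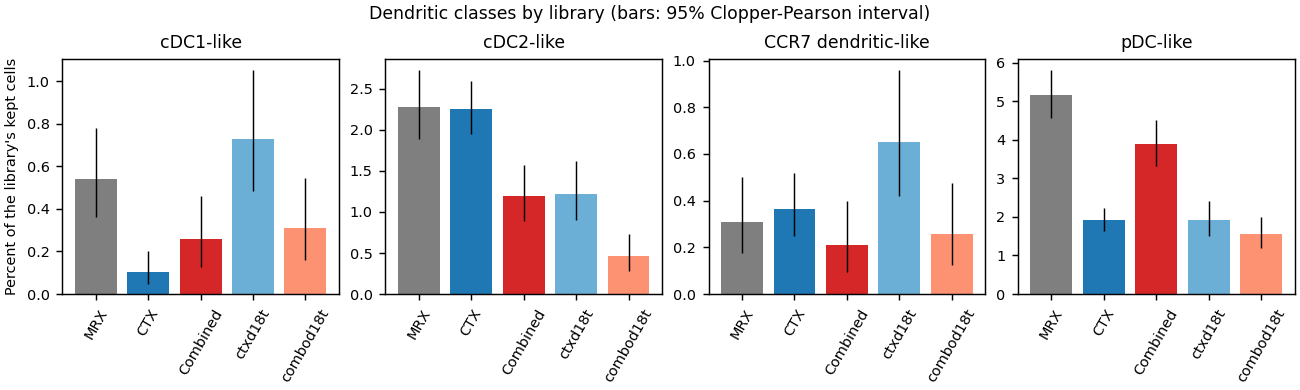
Percent of each library's kept cells in the cDC1-like, cDC2-like, CCR7 dendritic-like and pDC-like classes, bars starting at 0 with 95% Clopper-Pearson intervals. The pDC-like share is 5.16% in MRX, 1.92% in CTX and 3.88% in Combined, and the cDC2-like share of all kept cells is lower in Combined and combod18t than in CTX and ctxd18t; over cells that are not T-like, not drawn, the day-18 interval of that difference includes 0.

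Within conventional dendritic-like cells 5 of the 6 genes had enough counts to be set against the 2-fold mark, Flt3l not being one of them. Of these 5, 0 passed 2-fold for Combined against CTX, where 1.37% of 3586 tested genes did, and 0 passed it for combod18t against ctxd18t, where 3.05% of 3869 did. Beside shares this low, 0 of 5 says nothing particular about these genes. In thinned cells Irf8 did pass 2-fold at day 18, as given below. Flt3 stood at 98.6 CPM in Combined and 88.7 in CTX, a log2 ratio of 0.15 (-0.20 to 0.49), and at 368 in combod18t and 319 in ctxd18t, a ratio of 0.21 (-0.01 to 0.42). Zbtb46 gave 0.32 (-0.02 to 0.66) and 0.46 (0.15 to 0.78); with mixed clusters kept the latter was 0.15 (-0.11 to 0.41), and in thinned cells it was -0.76 (-2.09 to 0.38). Irf4 gave 0.40 (-0.09 to 0.89) and 0.11 (-0.46 to 0.67); with mixed clusters kept the latter turned to -0.50 (-0.94 to -0.088). Batf3 gave -0.13 (-0.63 to 0.35) and -0.53 (-1.12 to 0.02), the latter -0.68 (-1.16 to -0.25) with mixed clusters kept. The median over all tested genes was 0.08 and 0.03.

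Irf8 in conventional dendritic-like cells stood at 396 CPM in Combined and 306 in CTX, a log2 ratio of 0.37 (0.19 to 0.54). In the day-18 pair it stood at 505 CPM in combod18t and 614 in ctxd18t, a ratio of -0.28 (-0.45 to -0.11). With likely doublets kept this was -0.13, and its interval (-0.31 to 0.035) includes 0. In thinned cells the ratio was 0.61 (0.18 to 1.04) in the first pair and -1.05 (-1.72 to -0.44) at day 18, the latter on 26 and 131 counts. Lists of other cell types moved in the same cells: the summed monocyte-macrophage list stood at 484 CPM in combod18t and 1147 in ctxd18t, with 1 and 0 of its 12 genes at 0, and the B list at 9.5 and 110.2 CPM, with 6 and 0 of its 10 genes at 0. In the first pair the monocyte-macrophage list stood at 1189 CPM in Combined and 1805 in CTX, with 0 of 12 at 0 in each, and the B list at 44.3 and 22.4, with 3 and 2 of 10 at 0. Their part in the ratios of the class was not tested. In cDC2-like cells, the 1 subset with at least 20 cells in both libraries of the first pair, the ratio was -0.27 (-0.60 to 0.05). The cDC1-like cells, rich in Irf8, made up 15.5% of the conventional dendritic-like cells of Combined and 3.88% of those of CTX. With the subsets given the same mix in both libraries, an alternative added after the data were seen, the ratio was -0.32 in the first pair and -0.47 at day 18. These values use subset sums of as few as 9 cells in the first pair and 10 at day 18, under the minimum of 20, and have no interval. Irf4 in cDC2-like cells was higher in Combined than in CTX (0.63, 0.11 to 1.15) and did not reach 2-fold.

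**Figure D5:**
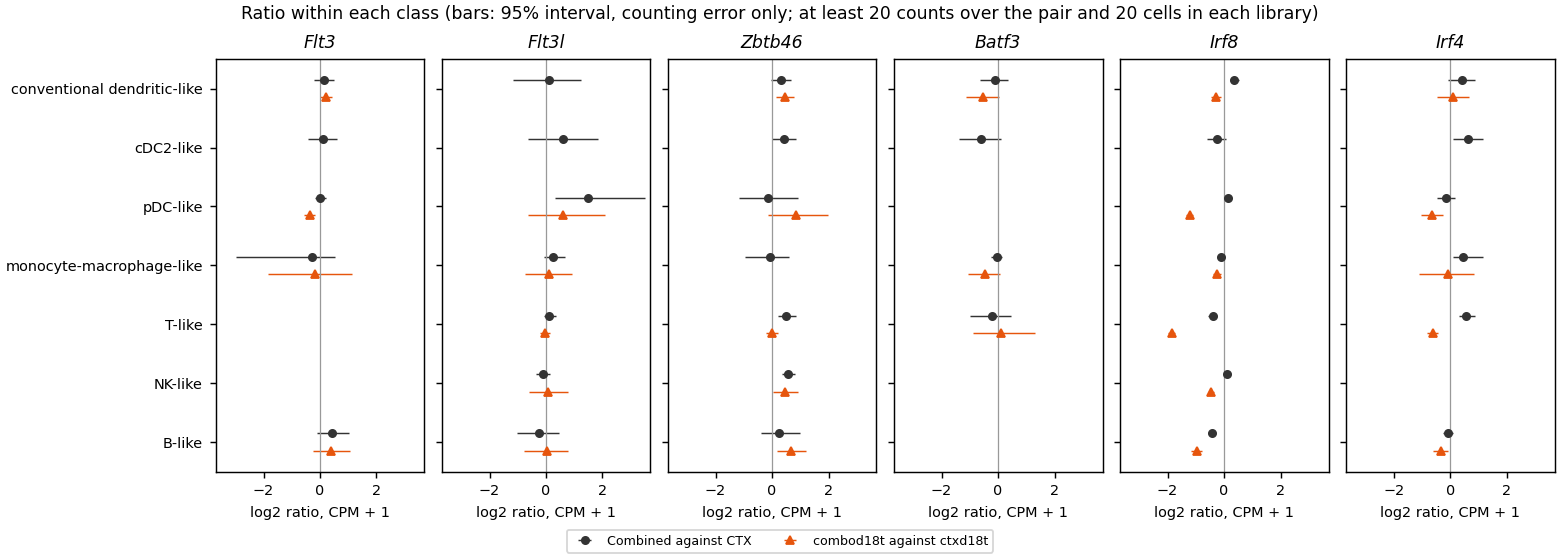
Log2 ratio of CPM + 1 within each class for Combined against CTX and for combod18t against ctxd18t, 1 panel per gene, for classes with at least 20 cells in each library and 20 counts over the pair, bars for the 95% interval of counting error. Flt3 ratios of conventional dendritic-like cells lie at 0.15 and 0.21, and Irf8 in pDC-like cells lies at 0.15 and -1.22.

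In pDC-like cells 1 of the 3 tested genes passed 2-fold in the day-18 pair, against 5.06% of 4305 genes, and 0 of 3 did for Combined against CTX, against 3.01% of 3991. The gene was Irf8, at 604 CPM in combod18t (562 to 648) and 1404 in ctxd18t (1332 to 1479), a log2 ratio of -1.22 (-1.35 to -1.09). Flt3 in the same cells gave -0.37 (-0.58 to -0.17) and Irf4 -0.63 (-1.02 to -0.26). In the first pair Irf8 gave 0.15 (0.07 to 0.23) and Flt3 0.01 (-0.18 to 0.20). The summed pDC marker list also moved in the day-18 pair, from 8155 CPM in ctxd18t to 4824 in combod18t, with all 12 markers above 0 in both. The summed B list stood at 36.6 and 290 CPM there, with 3 and 0 of its 10 genes at 0; the T list, with 1 of 12 at 0 in each, stood at 2057 and 2219. Their part in the Irf8 result was not tested.

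Irf8 was lower in combod18t than in ctxd18t in other large classes too. The log2 ratio was -0.45 (-0.56 to -0.35) in NK-like cells, -0.96 (-1.16 to -0.77) in B-like cells, -1.08 (-1.27 to -0.90) in germinal-centre B-like cells and -0.24 (-0.40 to -0.097) in monocyte-macrophage-like cells. In T-like cells it stood at 136 CPM in ctxd18t (129 to 143) and 37.1 in combod18t (34.6 to 39.8), a ratio of -1.85 (-1.998 to -1.75). Irf8 was the 1 tested gene of the 6 in T-like cells and passed 2-fold, against 4.06% of 4092 genes. Classes that should hold little Irf8 moved as well, from 37.4 to 8.0 CPM in neutrophil-like and from 28.5 to 4.9 CPM in epithelial-like cells, levels that free RNA in the droplets can give; its part in the result was not tested. The T-like class was also made of different clusters. A cluster led by Ccl1, Penk, Ifng and Pdcd1 held Irf8 at 330.2 CPM in ctxd18t and 145 in combod18t, and it held 314 of 1251 T-like cells in ctxd18t but 263 of 2585 in combod18t. A Lef1-led cluster with 12.2 and 12.6 CPM of Irf8 held 192 and 1289 of those cells.

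Set against MRX, the cDC2-like cells of CTX and Combined differed in Flt3 and Irf8. These comparisons share the MRX library. Of the 3 tested genes 2 passed 2-fold for CTX, against 5.56% of 3525 genes, and 2 of 4 for Combined, against 6.9% of 3303. Flt3 was lower, with a log2 ratio of -1.43 (-1.77 to -1.14) in CTX and -1.34 (-1.87 to -0.87) in Combined. Irf8 was higher, with 1.48 (1.14 to 1.88) and 1.22 (0.78 to 1.69). The make-up of the class differs between these libraries: dc1 (Flt3 113 and Irf8 61.2 CPM) held 76 of 118 cells in MRX, 48 of 192 in CTX and 6 of 51 in Combined, and dc2 (33.4 and 226 CPM) held 9, 53 and 26. The summed monocyte-macrophage list in cDC2-like cells stood at 1861 CPM in MRX, 2013 in CTX and 1305 in Combined, and its part was not tested. In pDC-like cells the Flt3 ratio to MRX was -0.28 in CTX and -0.27 in Combined.

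Few signalling and partner genes listed with these 6 were 2-fold apart in conventional dendritic-like cells. In the list of 15 genes that relay or damp FLT3 signals, 12 were tested in each pair, and 1 passed 2-fold in each, upwards. Upward changes of that size were seen in 0.502% and 1.63% of all tested genes of the pairs, and downward ones in 0.864% and 1.42%. It was Socs1, a feedback inhibitor of cytokine receptors, for Combined against CTX (119 and 54.9 CPM, log2 ratio 1.10, 0.76 to 1.46). In the day-18 pair it was Pik3r1, a regulatory subunit of PI3 kinase (1006 in combod18t and 471 CPM in ctxd18t, 1.09, 0.95 to 1.24). This list's median was -0.10 and 0.25, beside 0.08 and 0.03 over all tested genes. Of 18 further dendritic development factors, 13 and 14 were tested and 0 passed 2-fold in either direction, with medians of -0.04 and -0.14. The other interferon regulatory factors (5 of 7 tested) and BATF partners (3 of 5) also had 0 past 2-fold in both pairs. Kit, the receptor of stem cell factor and a relative of FLT3, was the 1 tested type III kinase; its ratio was 0.40 and 0.72. All 3 TAM receptor genes were too low to be tested in this class.

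Among these lists the most abundant genes differed by subset, given here as CPM over all libraries, which are not corrected for how well each gene is captured. Id2, which restrains E proteins, was the highest development factor in cDC1-like (1543 CPM) and CCR7 dendritic-like cells (2217 CPM), Etv6 in cDC2-like (790.0 CPM) and Tcf4 in pDC-like cells (2745 CPM). Of the relay genes it was Ptprj in cDC1-like (473 CPM), Gab2 in cDC2-like (801 CPM), Pik3r1 in CCR7 dendritic-like (1266 CPM) and Stat3 in pDC-like cells (840.0 CPM). Kit stood at 266 CPM in cDC1-like, 132 in cDC2-like and 124 in CCR7 dendritic-like cells, and Il34 led its list in pDC-like cells with 20.4 CPM. Irf5 led the other interferon regulatory factors in cDC1-like and cDC2-like cells (226 and 209 CPM) and Irf1 in CCR7 dendritic-like and pDC-like cells (373 and 333 CPM). Jund was the highest partner in cDC1-like and pDC-like cells (742 and 1065 CPM) and Junb in cDC2-like and CCR7 dendritic-like cells (948 and 938 CPM).

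The genes whose pattern was most like each member were found over 46 sums of a class in a library, from 12 classes, among 13506 genes. Only sums of at least 50 cells were used. The cDC1-like and CCR7 dendritic-like cells, with at most 28 and 31 cells in a library, are therefore absent, although Batf3 was highest in these classes. These sums share libraries and classes, so Pearson's r is a description. For Flt3 they were Kmo, itself one of the cDC2 markers used for naming (r = 0.94), Havcr1 (0.94) and Kynu (0.90). For Flt3l they were Nlrc3 (0.93), Sh2d2a and Slc35f2 (both 0.91), and for Irf4 they were Btla (0.87), E330020D12Rik (0.86) and Srebf2 (0.85). Batf3 was nearest to Dapk1 (0.85), Nectin1 (0.84) and Ank2 (0.82), and Irf8 to Lrrk1 (0.83), Eya1 (0.82) and Prodh (0.79). Zbtb46 had the weakest neighbours, Klf12 (0.77), Plekha5 and Serpinb6b (both 0.74). Among the 6 genes the highest value was 0.62, between Flt3 and Irf4, and the lowest was -0.39, between Batf3 and Flt3l.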

How the data were processed

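Per the labels' protocols, sorted cells were captured with the 10x 3′ v4 on-chip multiplexing kit and the authors processed the reads with Cell Ranger 9.0.1; the submitters' processing notes name GRCm39 and Seurat 5.2.0. The deposited matrices hold raw UMI counts per gene and barcode, not normalised; whether reads in introns were counted is not given in the sources used here. The VC library was not analysed here.

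Cells with at least 200 genes and at most 15% mitochondrial counts were kept. Scrublet's own threshold marked under 0.5% of cells, so the top 5% by score were removed (3.98% to 4.94% per library, ties kept). With scanpy 1.11.5 and leidenalg 0.10.2, 2000 variable genes without the 6 members gave 30 components, 15 neighbours and 26 clusters at resolution 1, with no integration. Conventional dendritic clusters were clustered again with 1000 genes and 20 components. For naming, markers were scaled to the cluster where they were highest and the 5 best per class averaged; the top class was taken if at least 3 of its markers were seen in 10% of cells. Where the runner-up reached 0.5 of the top score and median depth exceeded 1.5 times that of the libraries, a cluster was called mixed and kept out of named classes. Cluster 10 scored best as monocyte-macrophage-like (0.72), but its 10 leading genes held 0 markers of that class and 1 of another. It was therefore called by its number and kept out of the named classes. Its 914 cells held 326 of 2701 Mertk counts and 248 of 3110 Batf3 counts. The scoring was chosen after the data were seen, so class sizes can differ from the study's own.

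Levels are CPM of counts summed per class and library, with exact Poisson intervals, for at least 20 cells. Log2 ratios are of CPM + 1, which understates changes of low genes, with exact conditional binomial intervals; shares have Clopper-Pearson and differences Newcombe intervals. A gene was tested with at least 100 counts over the pair and 50 CPM in a library. Thinning to 2000 UMI left out 85 to 191 cells per library.

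The members, lists and markers were chosen with earlier results of these data known. The genes named beside the members are the 3 nearest by r (sums of at least 50 cells, genes with at least 200 counts), listed genes past 2-fold in conventional dendritic-like cells, and the highest of each list per subset. The Axl ratio in cDC2-like cells and the pDC-like ratios of the last paragraph lie outside this rule. The log2 ratios and their intervals were tried on simulated Poisson counts, the model these intervals assume, so their coverage there says nothing of other variation. Clustering, naming, doublet removal, thinning, shares and likeness were not tried on simulated data.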

Additional observations from a re-analysis of the deposited data

Results flagged for a closer look

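For these genes the ratio had opposite signs in the 2 pairs of libraries, with intervals of counting error that exclude 0 on both sides; the difference between the pairs itself was not tested, and day and run cannot be told apart. All values are log2 ratios of CPM + 1, Combined against CTX first and combod18t against ctxd18t second. Irf8 was 0.37 and -0.28 in conventional dendritic-like cells; with the same mix of subsets in both libraries it was -0.32 and -0.47, so the opposition is lost (subset sums of as few as 9 cells), and with likely doublets kept the second value was -0.13 (-0.31 to 0.035). Irf8 was 0.15 and -1.22 in pDC-like cells, and 0.12 and -0.45 in NK-like cells. Irf4 was 0.58 and -0.60 in T-like cells, and 0.95 and -0.73 in regulatory T-like cells. The T-like class is made of different clusters in these libraries: cluster 2 held 15.3% of the T-like cells of ctxd18t and 49.9% of those of combod18t. Irf4 in that cluster stood at 39.7 CPM in ctxd18t and 10.7 in combod18t, and at 17.3 in CTX and 16.4 in Combined. At day 18 the order in cluster 6 was opposite to that of the class. It stood at 40.8 CPM in ctxd18t (30.6 to 53.4) and 63.0 in combod18t (49.5 to 78.9), with overlapping intervals. Clusters 7, 9, 11, 14 and 17 had the order of the class there, with 21.0 and 14.4 CPM in cluster 7 and 65.9 and 45.8 in cluster 14. In the first pair the order in cluster 14 was opposite, at 55.2 CPM in CTX (39.9 to 74.3) and 36.8 in Combined (26.1 to 50.6), with overlapping intervals. Clusters 2, 6 and 7 were also opposite to the class in that pair, whereas clusters 9, 11 and 17 had its order. Over all kept cells, where the ratio also moves with the mix of classes, Flt3 was 0.77 and -0.41, Irf8 was 0.96 and -1.03, and Irf4 was 0.86 and -0.55. NK-like cells made up 21.9% of kept cells in Combined and 7.10% in CTX, and 2.77% in combod18t and 2.83% in ctxd18t.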

How the results depend on the processing

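Ratios of the 6 genes in conventional dendritic-like cells (Flt3l in T-like cells) and the share of that class were recomputed under other settings. Requiring 500 genes per cell, keeping likely doublets, Leiden resolution 2, a pseudocount of 10 CPM and a median-of-ratios scale left all values within the counting interval of the reported one. Signs changed for values whose interval includes 0: with doublets kept, Flt3 gave -0.032 for Combined against CTX and Irf4 -0.12 at day 18. In the same setting the day-18 interval of Irf8 came to include 0 (-0.13, -0.31 to 0.035) and that of Flt3 to exclude it (0.30, 0.09 to 0.51). Intervals also came to exclude 0 at resolution 2 for Batf3 (-0.55, -1.14 to -0.0043) and Flt3 (0.21, 0.00054 to 0.42) at day 18, and with mixed clusters kept for Batf3 at day 18 (-0.68, -1.16 to -0.25) and Zbtb46 in the first pair (0.37, 0.053 to 0.69). With mixed clusters kept, the day-18 ratios were -0.033 for Flt3, 0.15 for Zbtb46 (-0.11 to 0.41), -0.61 for Irf8 and -0.50 for Irf4 (-0.94 to -0.088, excluding 0), and the difference in share of Combined and CTX was -1.60 points. With cells thinned to 2000 UMI, Irf8 gave 0.61 for Combined against CTX and -1.05 at day 18, Flt3l gave -0.32 at day 18, Batf3 gave 0.34 in the first pair, and Zbtb46 reversed at day 18 to -0.76, on 8 and 33 counts. The mean of each cell's CPM gave 0.52 for Flt3 in the first pair and -0.62 for Irf8 at day 18. The same mix of subsets, added after the data were seen, turned Irf8 to -0.32 and Flt3 to -0.15 in the first pair and gave -0.47 at day 18. With T-like cells left out of the total, also added then, the day-18 difference in share was -0.71 points. The cause was not tested. With at least 20 counts and no CPM minimum, 5.04% and 8.21% of genes were 2-fold apart in the pairs. No paired analysis was possible because each label has 1 library. Cell number limits the cDC1-like and CCR7 dendritic-like levels, since 3 of the 5 libraries held under 20 such cells.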

Other observations

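In pDC-like cells some listed genes outside the 6 were at least 2-fold apart, and they were chosen here after their values were seen. Over all tested genes of the class 3.01% were that far apart for Combined against CTX and 5.06% at day 18. Of the tested development factors 2 of 14 and 2 of 15 were so, and of the relay genes 0 of 11 and 2 of 13. Id2, an inhibitor of E proteins such as TCF4, stood at 223 CPM in Combined and 45.5 in CTX, a log2 ratio of 2.27, and Ikzf3 gave 1.26. The summed NK marker list in pDC-like cells was 454 CPM in Combined and 407 in CTX, and its part was not tested. In the day-18 pair Cblb, a ubiquitin ligase that damps receptor signals, gave 1.54, Klf4 1.37 and Pik3r1 1.03, while Jun gave -1.82 and Bcl11a, a factor of the pDC lineage, -1.02. The summed pDC and B lists also moved in these cells at day 18, as given above, and their part was not tested.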
